A study of Mus musculus with 4 samples.

Results

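Leukaemia inhibitory factor (LIF) keeps mouse embryonic stem (ES) cells in self-renewal through a receptor of 2 chains, LIFR and gp130, the product of Il6st. The receptor activates Janus kinases, which phosphorylate the transcription factor STAT3. STAT3 in turn raises transcription of its own inhibitor Socs3 and of the Pim kinases. The genes described here are 9 of this pathway, Lifr, Il6st, Jak1, Jak2, Stat3, Socs3, Cish, Pim1 and Pim3, chosen by symbol from the 19797 gene symbols of the authors' RefSeq table, and all 9 were found. Of these, 8 reached the mean of 1 FPKM (reads scaled to transcript length and library total) that was required for testing, as did 12050 genes in all, and Cish lay below it at 0.841 FPKM.

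The cells were MC1-ZE7 mouse ES cells of strain MC1 (129S6/SvEvTac), sorted by the fluorescence of Emerald, which separated Zscan4-positive from Zscan4-negative cells. The high Emerald-positive fraction (Em+) and the Emerald-negative fraction (Em-) gave 2 libraries of ribosome-depleted total RNA each. Both fractions came from feeder-free culture with serum and LIF, so no library was made without LIF, and the labels give neither the age of the culture nor the origin of the reporter line. Whether replicates were grown or sorted separately is not stated, so p-values here measure a spread between libraries that may be technical.

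The RefSeq counts per library ranged from 16468218 to 18953217. Reads on Zscan4 genes numbered 3807 and 3550 in Em+ (in this order replicates 1 and 2, here and below) against 33 and 43 in Em-, which follows the sample titles and goes against the description field of the labels. The replicates were further apart in Em+ (chi-square over its degrees of freedom 34.8 for the tested genes) than in Em- (4.28). Em+ replicate 2 had 7.95% of its counts in the ribosomal RNA model Rn45s, against 3.93 to 4.33% in the other libraries. Rn45s was among the tested genes, so it enters both chi-square values, and its part in them was not computed. CPM here and below are counts scaled to the library's total over the tested genes, adjusted by TMM, edgeR's correction for composition. The 7 listed ES cell markers summed to between 5012 and 5758 CPM in every library. Among them Nanog was called higher in Em+ cells (0.48 on the log2 scale, edgeR adjusted p = 0.0192), while Pou5f1 (−0.27) and Sox2 (−0.29) did not pass and had lower values in both Em+ libraries. Of 7 fibroblast markers, Col3a1, Dcn and Lum were not listed in the table, and the rest summed to 43.9 and 41.9 CPM in Em+ and to 30.4 and 31.3 CPM in Em-, with Thy1 called higher in Em+ cells (0.89, edgeR adjusted p = 0.00386). Pdgfrb, the other fibroblast marker that was tested, stood at 0.06 with groups that overlapped (edgeR adjusted p = 0.742). The part of these markers in the results below was not tested.

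No member passed the test between Em+ and Em- cells, and those nearest to the threshold had lower levels in Em+ cells. With edgeR's quasi-likelihood test and Benjamini-Hochberg adjustment over all genes tested, 0 of 8 members had an adjusted p under 0.05, against 4.64% of all tested genes. At an unadjusted p under 0.05 there were 4, all lower in Em+ cells (Lifr, Il6st, Stat3 and Socs3), against 25.3% of tested genes in either direction and 10.7% in that direction. DESeq2 called 2 of them lower, Lifr and Socs3, with 1.25% of all tested genes. With limma on log2(FPKM + 1) the count was 0, and 293 of 12050 tested genes were called in either direction. The libraries of the groups did not overlap for 5 members that were lower in Em+ cells and for 1 that was higher, while each direction held 29.7% of all tested genes. The median log2 fold change (Em+ over Em-) was −0.19 over the 8 members and 0.00 over all tested genes. In bulk samples such as these, fewer cells that express a gene and less of its RNA per cell cannot be told apart. In the levels below, the TMM-scaled CPM serves to compare libraries for a single gene.

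**Figure D1:**
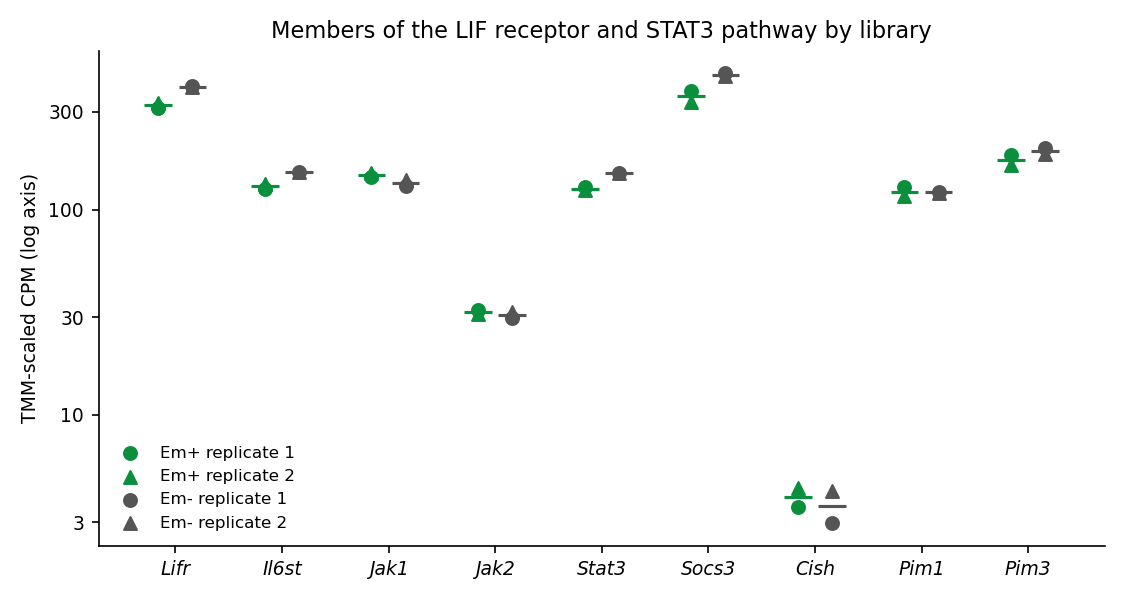
TMM-scaled CPM (log axis) of the 9 members in each of the 4 libraries, with circles and triangles for replicates 1 and 2, green for Em+ and grey for Em-, and bars at the group means. Lifr, Il6st, Stat3, Socs3 and Pim3 lie lower in both Em+ libraries, Jak1 lies higher, and the groups overlap for Jak2, Cish and Pim1.

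The 2 receptor chains both stood lower in Em+ cells. Lifr, which binds LIF, lies on the plus strand of chromosome 15 from 7129572 to 7197489 (mm10). Its level was 315 and 333 CPM in Em+ against 399 and 398 CPM in Em-. Both Em+ libraries were below both Em- libraries, by at least 64.8 CPM, and the Em- libraries were nearly equal. The means were 324 ± 13.2 CPM and 399 ± 0.80 CPM (SD, n = 2 each), and the log2 fold change was −0.30 with an SE of 0.07 (edgeR adjusted p = 0.0515). Il6st encodes gp130, the signalling chain shared with other cytokines of the IL-6 family, and lies on the plus strand of chromosome 13 from 112464070 to 112506860. It reached 126 and 134 CPM in Em+ against 154 and 153 CPM in Em-, again without overlap. The log2 fold change of Il6st was −0.23 (SE 0.06, edgeR adjusted p = 0.0840).

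Nearly all Lifr reads were assigned to 1 long model in each table, but not to the same one. The RefSeq table has 2 models, a long one of 9663 bases that starts at 7140542 and a short one of 2844 bases that starts further upstream at 7129572 and ends at 7185343. The long model took 98.7% of the gene's counts over the 4 libraries. The short model had 66 and 85 counts in Em+ against 110 and 70 in Em-, so its groups overlapped. A model of 9655 bases took 98.6% of the counts in both the Ensembl and the ENCODE tables. The known-gene table, which has no short model, put 99.0% on S73496, a model of 10162 bases, and gave NM_013584, the long RefSeq model, 4 counts in each Em+ library against 5 and 6 in Em-. The tables thus do not settle which long model of Lifr was transcribed. Il6st was counted on a single model in the RefSeq table, while 1 of its 9 Ensembl models took 87.7% of the reads counted there, which were fewer (1280 and 1224 in Em+ against 1552 and 1624 in Em-, where RefSeq had 2265, 2123, 2794 and 2899).

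Neither Janus kinase passed the test. Jak1, the kinase on which gp130 signalling chiefly depends, lies on the minus strand of chromosome 4 from 101151974 to 101265282. Its level was 145 and 152 CPM in Em+ against 131 and 140 CPM in Em-. The Em+ libraries were the higher ones, with a gap between the groups of 5.44 CPM that was smaller than the difference between the Em- libraries. The log2 fold change of Jak1 was 0.13 (SE 0.07, edgeR adjusted p = 0.260). Jak2, on the plus strand of chromosome 19 from 29251803 to 29313080, was less abundant at 32.4 and 31.1 CPM in Em+ against 29.7 and 31.6 CPM in Em-. Jak2 counts were the same for all 4 sets of gene models, with those of Em- replicate 1 recovered from FPKM for RefSeq and Ensembl. Its groups overlapped and its log2 fold change was 0.05 (SE 0.08, edgeR adjusted p = 0.724). Both values turned negative on the deposited FPKM without further scaling (−0.03 for Jak1 and −0.08 for Jak2 with a pseudocount of 1), where the median of all tested genes was −0.14.

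Stat3, the transcription factor downstream of the receptor, lies on the minus strand of chromosome 11 from 100886810 to 100939511. It had 129 and 124 CPM in Em+ and 151 CPM in each Em- library, so the groups were 22.2 CPM apart while the Em- values were nearly equal. Its log2 fold change was −0.25 (SE 0.06, edgeR adjusted p = 0.0619). The deposited tables do not resolve the Stat3 isoforms. In the RefSeq table NM_011486 took 99.7% of the counts, whereas in the known-gene table, which lists the same 3 models, NM_213660 took 99.7% and NM_011486 had 3 and 4 counts in Em+ against 7 and 2 in Em-. The summed counts of the gene were nearly the same in both, for example 2308 and 2309 in Em+ replicate 1. In the GENCODE M21 annotation 72 exonic bases of Stat3 are shared with its neighbour Stat5a on the other strand, and 4 of Jak1 with Raver2. Stat5a ends at 100885169, outside the RefSeq models of Stat3 used for the counts. Raver2 runs to 101152370, while the RefSeq model of Jak1 begins at 101151974. The bases shared with that model may therefore be more than 4 and were not counted.

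Over all 4 libraries Socs3 had the log2 fold change farthest from 0 among the tested members, while without Em+ replicate 2 those of Lifr (−0.34) and Il6st (−0.28) were farther from 0 than that of Socs3 (−0.27). It encodes the feedback inhibitor that binds gp130 and blocks its Janus kinases, and lies on the minus strand of chromosome 11 from 117966087 to 117969366. Its level was 380 and 336 CPM in Em+ against 463 and 449 CPM in Em-. All Em+ values lay below all Em- values, by at least 69.2 CPM, and the replicates were further apart in Em+. The means were 358 ± 31.0 and 456 ± 10.04 CPM (SD, n = 2 each), and the log2 fold change was −0.35 with an SE of 0.08 (edgeR adjusted p = 0.0541). Cish, a related inhibitor known as a target of STAT5, lies on the plus strand of chromosome 9 from 107296689 to 107301961 and was too low to be tested. It had 64 and 70 counts in Em+ against 54 and 81 in Em-, or 3.57 and 4.42 CPM against 2.97 and 4.27 CPM. The groups of Cish overlapped, and the spread between the Em- libraries was wider than the difference of the means. Cish counts depended on the gene model, with 58 and 59 in Em+ against 43 and 73 in Em- in the known-gene table, and 20 and 30 against 33 and 23 in the Ensembl table. Its exons share 261 bases with Gm17040 and 479 bases with Gm17041 on the other strand in GENCODE M21.

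Socs3 and Cish are also the members whose promoter windows hold the palindromic STAT motif TTCNNNGAA, and these are printed here because they show where the sequence that STAT proteins are known to bind sits in feedback inhibitors. The windows run from 250 bases before to 50 bases after the annotated start, are 300 bases long, and come from RefSeq on build GRCm38.p6, the same assembly as mm10. They are written 5′ to 3′ on the strand of the gene, with motif matches in capitals, Socs3 from chr11:117969317-117969616 on the minus strand and Cish from chr9:107296409-107296708 on the plus strand.
Socs3: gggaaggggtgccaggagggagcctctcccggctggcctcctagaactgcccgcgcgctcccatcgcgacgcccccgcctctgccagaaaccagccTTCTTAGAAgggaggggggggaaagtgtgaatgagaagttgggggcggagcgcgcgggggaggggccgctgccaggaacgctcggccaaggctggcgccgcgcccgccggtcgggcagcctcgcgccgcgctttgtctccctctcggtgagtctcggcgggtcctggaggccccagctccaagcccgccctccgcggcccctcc
Cish: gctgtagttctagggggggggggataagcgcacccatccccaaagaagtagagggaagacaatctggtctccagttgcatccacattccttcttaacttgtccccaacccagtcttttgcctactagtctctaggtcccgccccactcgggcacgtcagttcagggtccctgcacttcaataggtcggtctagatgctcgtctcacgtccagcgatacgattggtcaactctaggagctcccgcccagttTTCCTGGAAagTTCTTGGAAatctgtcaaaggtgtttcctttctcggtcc

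The Socs3 window holds 1 match, TTCTTAGAA, which begins 154 bases before the start site. The Cish window holds 2, TTCCTGGAA at the start site of the window and TTCTTGGAA 11 bases after it. That start, 107296659, lies 30 bases upstream of the Cish start in the authors' table, while the Socs3 starts are the same. The pattern reads the same on both strands as a motif, so each match was counted once. All 9 members had at least 1 window, 11 windows in all, and 2 of these held the motif, against 8.30% of 32851 windows in the whole table. At least 2 matches occurred in 0.457% of all windows. No match in a window says only that these letters are not within those 300 bases, and matches are a description of sequence and not of binding. Of the members with a match, Socs3 was the most abundant of all 9 per length and Cish the least.

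The Pim kinases, serine/threonine kinases whose genes are transcriptional targets of STAT3, differed little between the fractions. Pim1, on the plus strand of chromosome 17 from 29491045 to 29495459, had 129 and 117 CPM in Em+ against 122 and 121 CPM in Em-. Both Em- values lay between the Em+ values, and the log2 fold change of Pim1 was 0.01 (SE 0.07, edgeR adjusted p = 0.927). Its sign changed under 9 of 17 alternatives, among them the deposited FPKM (−0.15 with a pseudocount of 1). In GENCODE M21 its exons share 488 bases, 14.5% of their length, with Gm26885 on the other strand. Pim3, on the plus strand of chromosome 15 from 88862194 to 88865726, had 185 and 165 CPM in Em+ against 200.3 and 188 CPM in Em-. Its groups did not overlap, but the gap of 3.36 CPM was small beside the difference between the Em+ libraries, and its log2 fold change was −0.15 (SE 0.08, edgeR adjusted p = 0.263).

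Which members passed the test turned on which library was left out. Without Em+ replicate 1, 5 members were lower (Lifr −0.26, Il6st −0.19, Stat3 −0.28, Socs3 −0.44 and Pim3 −0.24) and Jak1 was higher (0.16), with edgeR adjusted p from 1.97e-05 for Socs3 to 0.0279 for Jak1. In that comparison 41.4% of all tested genes were called, and 19.5% were lower in Em+ cells. Without Em+ replicate 2, Lifr (−0.34), Il6st (−0.28), Stat3 (−0.23) and Socs3 (−0.27) were called lower, with edgeR adjusted p between 1.50e-04 and 0.00636, while 16.3% of all tested genes were called and 6.9% as lower. No member was called lower with Em- replicate 1 left out (background 0.274%) or with Em- replicate 2 left out (0.606%), nor at a mean of at least 5 FPKM (0.316%). The log2 fold change of Lifr was −0.30 in both of those leave-outs (edgeR adjusted p = 0.467 and 0.398). A fraction left with 1 library is assumed in these fits to vary like the other. Lifr, Il6st, Stat3, Socs3 and Pim3 were below 0 in all 17 alternatives tried. These refit the same 4 libraries, in which the groups of these members did not overlap, so a constant sign adds little to that. Of all tested genes 29.7% were lower in Em+ cells without overlap, and the share that kept its sign is not given here. With the replicate number of the titles as a block, Lifr (edgeR adjusted p = 0.0284), Stat3 (0.0497) and Socs3 (0.0119) passed, as did 12.9% of all tested genes, 3.83% as lower. The same 3 were lower with no filter on low values (background 1.47%) and with filterByExpr, edgeR's own filter on counts (1.92%), and Lifr alone was lower without TMM (1.54%).

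**Figure D2:**
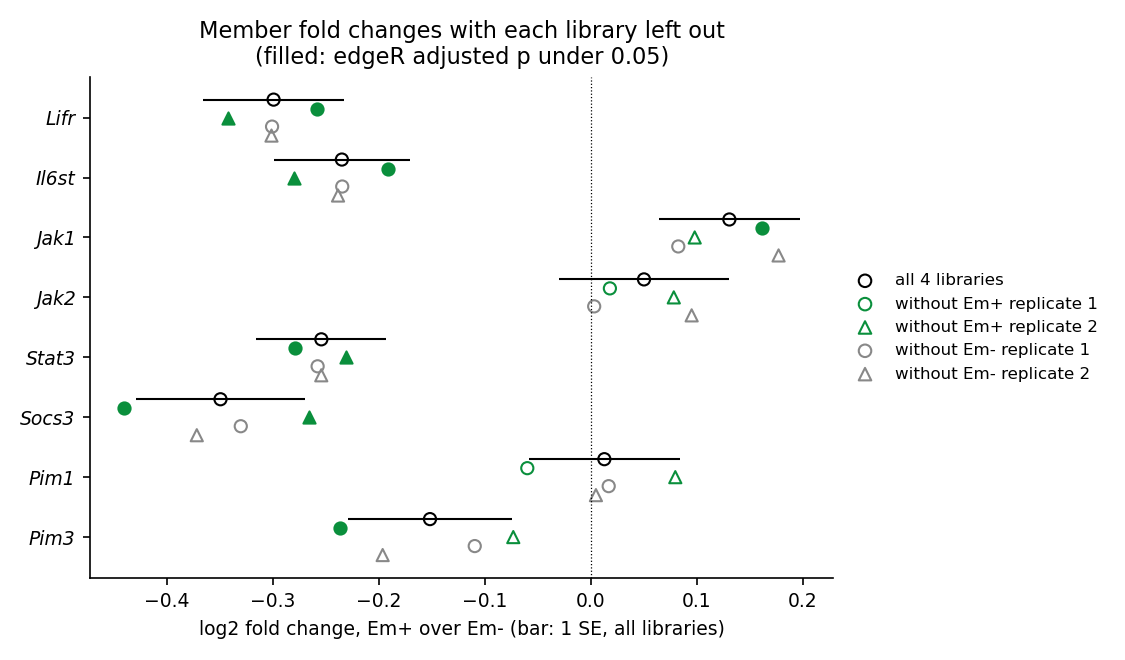
Log2 fold change (Em+ over Em-) of the 8 tested members over all 4 libraries (black, with 1 SE) and with each library left out, filled where edgeR's adjusted p was under 0.05. Lifr, Il6st, Stat3 and Socs3 are below 0 in every fit and are filled when either Em+ library is left out, and no symbol is filled when an Em- library is left out.

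The libraries also differed by transcript length, whose part in the members' values was not tested. Among the 1012 tested genes with a leading transcript of 6000 bases or more, the median log2 ratio of Em+ replicate 2 over Em+ replicate 1 was 0.15, and the median log2 fold change of Em+ over Em- was also 0.15. Among the 2807 genes from 1000 to 2000 bases those medians were −0.08 and −0.05. Lifr, with the longest transcript of the members, stood at 0.08 between the Em+ libraries and at −0.30 between the groups. Stat3 and Il6st, at 4437 and 5452 bases, stood at −0.25 and −0.23 in a class of 1837 genes (4000 to 6000 bases) with a median of 0.07, which also holds Jak1 (0.13) and Jak2 (0.05). Socs3 and Pim3 stood at −0.35 and −0.15 among 2677 genes of 2000 to 3000 bases with a median of −0.01, and between the Em+ libraries at −0.18 and −0.17. The length classes were looked at after the values of the members were seen.

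**Figure D3:**
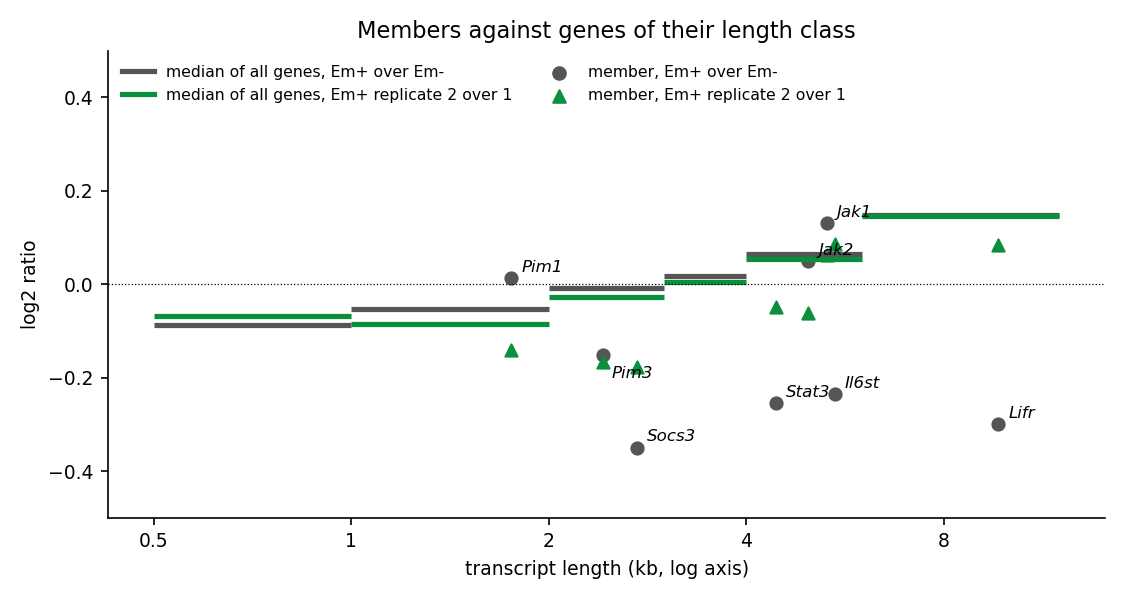
Log2 ratio against transcript length (kb, log axis), with circles for the members' Em+ over Em- values, triangles for their Em+ replicate 2 over replicate 1 values, and bars for the medians of all tested genes in 6 length classes in the same colours. The medians of Em+ over Em- climb from −0.09 in the class under 1000 bases to 0.15 at 6000 bases or more, those of the Em+ libraries go from −0.07 to −0.08 in the next class and then up to 0.15, and the circles of Lifr, Il6st, Stat3 and Socs3 lie below the bars.

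Compared per length, on the deposited FPKM, the inhibitor Socs3 was the most abundant member with a mean of 72.5 FPKM and a range over the 4 libraries from 51.5 to 86.2. The kinases Pim3 (36.9 FPKM) and Pim1 (33.6 FPKM) came next, and their ranges overlapped. Lifr (18.6 FPKM), Stat3 (15.1), Jak1 (12.8) and Il6st (12.5) followed, each with a range that overlapped that of its neighbour in the order. Jak2 had a mean of 3.02 FPKM (2.61 to 3.23) and Cish of 0.841 FPKM (0.695 to 1.00), and neither range met another. The receptor chains, Stat3 and Jak1 thus lay within a narrow band, and Jak2 stood below Jak1 in every library. Em+ replicate 2, the library with the most Rn45s counts, had the lowest FPKM of the 4 libraries for all members but Cish. The share of all genes with their lowest FPKM in that library is not given here. RefSeq counts were 43.4% of the reads behind its FPKM, against 49.0 to 51.1% in the other libraries. On the TMM scale Lifr, Il6st, Jak1 and Cish were higher in Em+ replicate 2 than in Em+ replicate 1. Jak2, Stat3, Socs3, Pim1 and Pim3 were lower.

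The 3 tested genes closest to Stat3 in pattern over the 4 libraries, by Euclidean distance of centred log2 CPM, were Gpt (distance 0.0123), Hpcal1 (0.0146) and Dnajc18 (0.0148). With 4 libraries in 2 groups this measure says little beyond a like difference between the groups, and their log2 fold changes were −0.27, −0.26 and −0.25. None of the 3 passed the test (edgeR adjusted p = 0.232, 0.0951 and 0.101). In closeness to Stat3 among 12049 genes, the members ranked 594 (Il6st), 674 (Lifr), 1348 (Socs3), 1564 (Pim3), 5150 (Pim1), 6058 (Jak2) and 7825 (Jak1).

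Of the other genes of LIF, IL-6 family and JAK-STAT signalling, the receptor gene Il6ra rose strongly in Em+ cells and 2 genes fell. The list held 67 genes by role, of which 66 were in the table and 57 were tested. Of these 1 was higher and 2 were lower in Em+ cells, against 3.82% higher and 0.822% lower of all tested genes, and 5 were higher and 11 lower at an unadjusted p under 0.05, against 14.5% and 10.7% of all tested genes. When Em+ replicate 1 was left out 13 were higher and 16 lower, against 21.9% and 19.5% of all tested genes. When Em+ replicate 2 was left out 6 were higher and 5 lower (9.43% and 6.9% of all), and when Em- replicate 1 was left out 1 was higher and 0 lower (3.79% and 0.274% of all). The median log2 fold change of the 57 was −0.06. Il6ra encodes the chain that binds interleukin 6 and then joins gp130, the product of Il6st. It had 293 and 310 counts in Em+ against 34 and 54 in Em-, or 16.3 and 19.6 CPM against 1.87 and 2.85 CPM. Every Em+ value was far above every Em- value, and the means differed 7.62-fold (log2 fold change 2.92, SE 0.20, edgeR adjusted p = 1.54e-04). Leaving out Em- replicate 1 gave 2.65 and leaving out Em- replicate 2 gave 3.26, and the gene was called in each of the 16 alternatives in which it could be tested. On the FPKM scale Il6ra remained low, at 2.40 and 2.45 FPKM in Em+ against 0.283 and 0.432 FPKM in Em-. Its mean of 1.39 FPKM over the 4 libraries thus reached the required 1 FPKM only through the Em+ libraries. With no filter on low values the gene stood at 2.86. It lies on the minus strand of chromosome 3 from 89869324 to 89913162, and its exons share 242 bases with those of the antisense gene Gm42809 in the GENCODE M21 annotation. Whether the authors' counts used strand is not given in the sources used here, so reads from that stretch cannot be told apart.

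The ligands were low, and none passed the test. Lif itself had 14.5 and 15.5 CPM in Em+ against 19.1 and 17.8 CPM in Em-, with no overlap, and its log2 fold change was −0.30 with an SE of 0.11 (edgeR adjusted p = 0.147). The ligands Il6, Il11, Osm, Cntf and Clcf1 lay below the filter. Il6, the ligand of Il6ra, had between 0 and 2 counts per library. Among the receptors, Il11ra1 stood at −0.08 (edgeR adjusted p = 0.744), and Cntfr and Osmr lay below the filter.

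Of 13 tested inhibitors Socs2 alone passed, where 4.64% of all tested genes did, and it had the same direction as the value of Socs3. Socs2, known as a feedback inhibitor of growth hormone and STAT5 signalling, fell from 71.3 and 67.2 CPM in Em- to 50.2 and 51.9 CPM in Em+. Its log2 fold change was −0.44 (SE 0.08, edgeR adjusted p = 0.0217), and leaving out Em- replicate 1 ended the call (−0.40, adjusted p = 0.147). Pias2, the inhibitor with the highest mean FPKM, stood at 0.13 with groups that overlapped (edgeR adjusted p = 0.392), and was called higher without Em+ replicate 1 (0.26). None of the 6 other STAT genes passed, and Stat2, which had the highest mean FPKM of these, stood at 0.27 (edgeR adjusted p = 0.111). Stat2 was called higher when either Em+ library was left out (0.33 without replicate 1, 0.20 without replicate 2). The 2 other Janus kinases did not pass either, and Tyk2, the more abundant per length, stood at −0.15 (edgeR adjusted p = 0.253) and was called lower without Em+ replicate 1 (−0.18). Pim2 stood at 0.14 (edgeR adjusted p = 0.549). No gene of the 16 tested adaptors and signal branches was called, and Map2k1, the most abundant per length, stood at −0.12 (edgeR adjusted p = 0.322). It was called lower without Em+ replicate 1 (−0.18) and stood at −0.056 without Em+ replicate 2.

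Among 14 tested genes known as targets of LIF and STAT3 in ES cells, 1 was called lower and 0 higher. Over all tested genes these shares were 0.822% and 3.82%. At an unadjusted p under 0.05 in the edgeR test, 4 targets were lower and 1 higher, against 10.7% and 14.5% of all tested genes. Log2 fold changes were below 0 for 9 targets and above 0 for 5. Junb, a subunit of the transcription factor AP-1, fell from 82.4 and 69.2 CPM in Em- to 52.6 and 55.7 CPM in Em+ (log2 fold change −0.49, SE 0.10, edgeR adjusted p = 0.0418). Leaving out Em- replicate 1 gave −0.36. In the GENCODE M21 annotation the exons of Junb share 173 bases with Prdx2 on the other strand. Prdx2 ends at 84974834, outside the counted RefSeq model of Junb, which begins at 84976909. Mcl1, an inhibitor of apoptosis and the target with the highest mean FPKM, stood at −0.09 (edgeR adjusted p = 0.537). It was called lower when Em+ replicate 1 was left out (−0.16) and stood at −0.016 when Em+ replicate 2 was. The difference between the members and these targets was not tested.

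**Figure D4:**
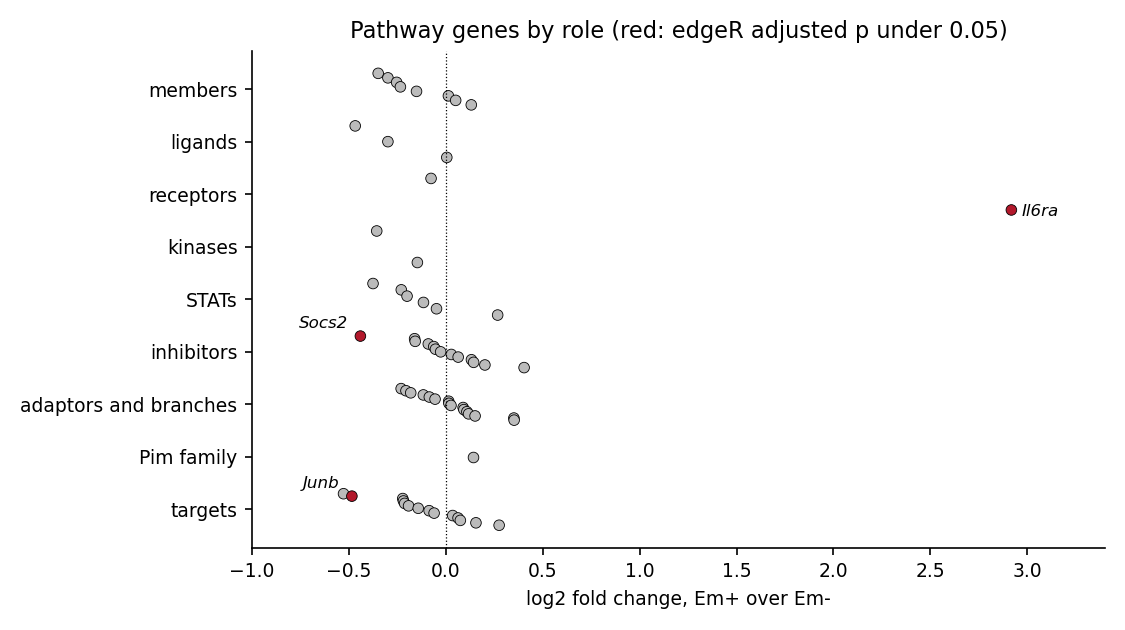
Log2 fold change (Em+ over Em-) of the 8 tested members and the 57 other tested pathway genes, 1 point a gene, in rows by role and red where edgeR's adjusted p was under 0.05. Il6ra at 2.92 lies far to the right of every other gene, and Socs2 and Junb are the 2 red points below 0.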

How the data were processed

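The authors deposited 4 tables (RefSeq, known-gene, Ensembl and ENCODE models) listing transcripts, with a raw count and an FPKM value for each library, per the file headers. Alignment by Bowtie2 and build mm10 come from the submitters' processing notes. How reads were counted, and whether by strand, is not given in the sources used here. The 9 members and the lists of other pathway genes and cell markers were chosen with earlier results of these data known.

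The count column of Em- replicate 1 in the RefSeq and Ensembl tables holds only 0. Its counts were recovered as FPKM, plus 0.0005 for truncation, times length times the library total recovered from the known-gene table. Over 12803 transcripts with identical counts in the other libraries, 99.6% of the recovered counts equalled the known-gene counts. FPKM and counts were summed per symbol. Genes with a mean of at least 1 FPKM were tested with edgeR 4.0.16 (R 4.3.3, quasi-likelihood, TMM, two-sided, no covariate). P-values had Benjamini-Hochberg adjustment and a threshold of 0.05. The test was checked on simulated data with equal spread in both groups and changes larger than those of the tested members. That check does not show how the test does at changes of the members' size or with unequal spread. The SE of a log2 fold change came from the F statistic. Alternatives used DESeq2 1.42.0, limma 3.58.1 on log2(FPKM + 1) and log2(FPKM + 0.1), other scalings, filters and tables, a replicate block, and each library left out. Named genes were the 9 members, every other pathway gene that passed, and the tested gene with the highest mean FPKM in each role, of which 1 is not reported here. Lif was named beside them as the pathway's ligand, after its values were seen. Coordinates are from the RefSeq table, with starts counted from 1.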

Additional observations from a re-analysis of the deposited data

How the results depend on the processing

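Limits come from the 2 libraries per fraction, from the spread between the Em+ libraries, and, for Cish, from 54 to 81 counts per library. The count of 559 genes called became 293 and 269 with limma on log2(FPKM + 1) and log2(FPKM + 0.1), 1178 with no filter on low values, 1247 with filterByExpr and 171 at a mean of at least 5 FPKM. It ran from 490 to 4992 with a library left out. Scaling by the totals behind the deposited FPKM moved the median of all tested genes to −0.16, and limma on log2(FPKM + 1) to −0.14.

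The count of members called lower was 0 (0.822% of all tested genes). It became 1 without TMM (1.54%), 2 with DESeq2 (1.25%), and 3 each with no filter (1.47%) and with filterByExpr (1.92%). Calls of members with a library left out are given above beside the shares of all tested genes. Lifr passed without TMM (−0.32), with DESeq2 (−0.30), with no filter (−0.36) and with filterByExpr (−0.34), Stat3 with no filter (−0.31) and with filterByExpr (−0.29), and Socs3 with DESeq2 (−0.35), no filter (−0.41) and filterByExpr (−0.39). With a library left out, Lifr ran from −0.34 to −0.26, Il6st from −0.28 to −0.19, Stat3 from −0.28 to −0.23, Socs3 from −0.44 to −0.27, Pim3 from −0.24 to −0.073, Jak1 from 0.083 to 0.18 and Pim1 from −0.060 to 0.080. The cause of these shifts was not tested.

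Signs changed as follows. On the totals behind FPKM, Jak1 stood at −0.031, Jak2 at −0.11, Pim1 at −0.14, Pias2 at −0.038 and Pim2 at −0.023. With limma at a pseudocount of 1 the values were −0.030, −0.084, −0.15, −0.038 and −0.014, and at 0.1 they were −0.033, −0.11, −0.15, −0.039 and −0.022. With no filter Jak2 stood at −0.0086 and Pim1 at −0.046. Pim1 also stood at −0.026 with filterByExpr, at −0.0031 without TMM, at −0.0029 in the known-gene table and at −0.0022 in the ENCODE table. Cish, at a 1.10-fold ratio of means, stood at −0.026 in the Ensembl and −0.033 in the ENCODE table, and Il11ra1 at 0.064 and 0.058. Pias2 ran from −0.0060 to 0.26 with a library left out. The ENCODE table was added after the data were seen.

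Of the other pathway genes, 1 higher and 2 lower calls became 0 and 0 at a mean of at least 5 FPKM, where 34 were tested and Il6ra was not. Lower calls became 5 on the totals behind FPKM and 0 with either limma fit. Of 12050 tested genes, 627 were called in either direction on those totals, where the median of all was −0.16. The limma fits called 293 and 269. The share of all genes called lower in these settings is not given here, so the 5 and the 0 cannot be set against it. With a library left out, higher calls ran from 1 to 13 and lower calls from 0 to 16.

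With the replicate number of the titles as a block, 1552 genes were called, 12.9% of those tested, with 3.83% called lower. Of the members 3 were lower (Lifr −0.30, Stat3 −0.25 and Socs3 −0.35). Of the 57 other tested pathway genes 4 were higher and 3 lower. The deviations of same-numbered libraries correlated at r = 0.016 over the tested genes, and nothing in the labels says that a number marks a shared culture or day.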
